A study of Mus musculus with 8 samples.

Results

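The genes described here are 9 that handle vitamin A in the liver: Rbp4, Ttr, Lrat, Aldh1a1, Aldh1a7, Rdh16, Cyp26a1, Dhrs3 and Retsat. They were picked by name, from their known part in retinol binding, storage, oxidation and breakdown, out of 56884 genes counted. Liver RNA came from C57BL/6J female mice of 18 months of age, with 1 library per mouse. All mice had diet-induced obesity (DIO), since they had eaten a diet with 45% of its energy as lipids for 4 months before the groups were formed. The DIO group, with 3 mice, stayed on that diet. In the DIO + DHA group, with 5 mice, a fish oil concentrate holding 683.4 mg of docosahexaenoic acid (DHA) per g took the place of 15% by weight of the dietary lipids. All 8 libraries are from females on the high-fat diet at 1 age, and the libraries carry the replicate numbers 1, 4 and 5 in the DIO group and 1, 2, 4, 5 and 6 in the DIO + DHA group.

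Vitamin A reaches the liver as retinyl ester and is hydrolysed to retinol. Retinol leaves hepatocytes bound to RBP4, which circulates in a complex with transthyretin, or passes to hepatic stellate cells, where lecithin retinol acyltransferase (LRAT) turns it back into ester for storage. Retinol and retinal are interconverted by dehydrogenases and reductases, retinal is oxidised to retinoic acid, the ligand of the nuclear receptors RAR, and retinoic acid is broken down by CYP26 enzymes. Retinoic acid itself is known to switch on Cyp26a1, Lrat and Dhrs3.

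Levels are given as CPM, the counts of a gene scaled by TMM to a common library total, and a value written with ± is a group mean with its SD over the 3 DIO or the 5 DIO + DHA mice. Because most reads of these libraries come from the 3′ end of a transcript, counts were not divided by length. A gene said to have the largest mean CPM of a list has the most reads counted over the 8 libraries, which does not rank genes by molecules. A gene was called changed at a Benjamini-Hochberg adjusted p under 0.05 in edgeR's quasi-likelihood test over 12412 genes, and each adjusted p below is from that fit unless another test is named. The libraries held 1723800 to 5690347 counts, DIO replicate 1 being the shallowest. Marker genes of tissue other than liver differed between the groups: summed over 12 skeletal muscle markers they came to 37.8 to 42.2 CPM in the DIO group and 1266 to 1343 CPM in the DIO + DHA group, all 12 being called higher. Of 13 markers of stratified squamous epithelium, 10 were at 0 in all 3 DIO libraries, Krt13 and Lgals7 among them, and their sum was 0 to 1.26 against 53.0 to 57.4 CPM, with all 6 that could be tested higher. The 8 adipocyte markers, of which 3 were at 0 in all DIO libraries and 5 of 6 tested were higher, summed to 20.7 to 22.4 against 81.0 to 111.3 CPM, and the 13 macrophage markers to 773 to 870 against 439 to 480 CPM. The part of these differences in the results below was not tested, and their sums are set beside the genes they could touch. The 8 hepatocyte markers summed to 67822 to 71509 against 81310 to 89348 CPM. Of these 8, Fabp1, Apoa1 and Tat were higher, Hnf4a (log2 fold change −0.53) and Cyp2e1 (−0.22) were lower, and Alb, Apob and Cps1 were not called.

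All 9 genes passed the filter on low counts. With DHA in the diet, Rbp4, Retsat and Aldh1a7 were higher, Aldh1a1 and Lrat were lower, and Ttr, Rdh16, Dhrs3 and Cyp26a1 were not called. Thus 5 of 9 genes were called, against 15.2% of all tested genes (7.89% higher and 7.28% lower). For the same 5 genes the groups were fully apart, which was true of 18.4% of all tested genes. Over the 9 genes the log2 fold changes ran from −1.03 for Lrat to 0.44 for Retsat, with a median of −0.00, as over all tested genes (0.00). With 4 of 5 called genes the difference was under 0.5 on the log2 scale, and Lrat was the exception.

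**Figure D1:**
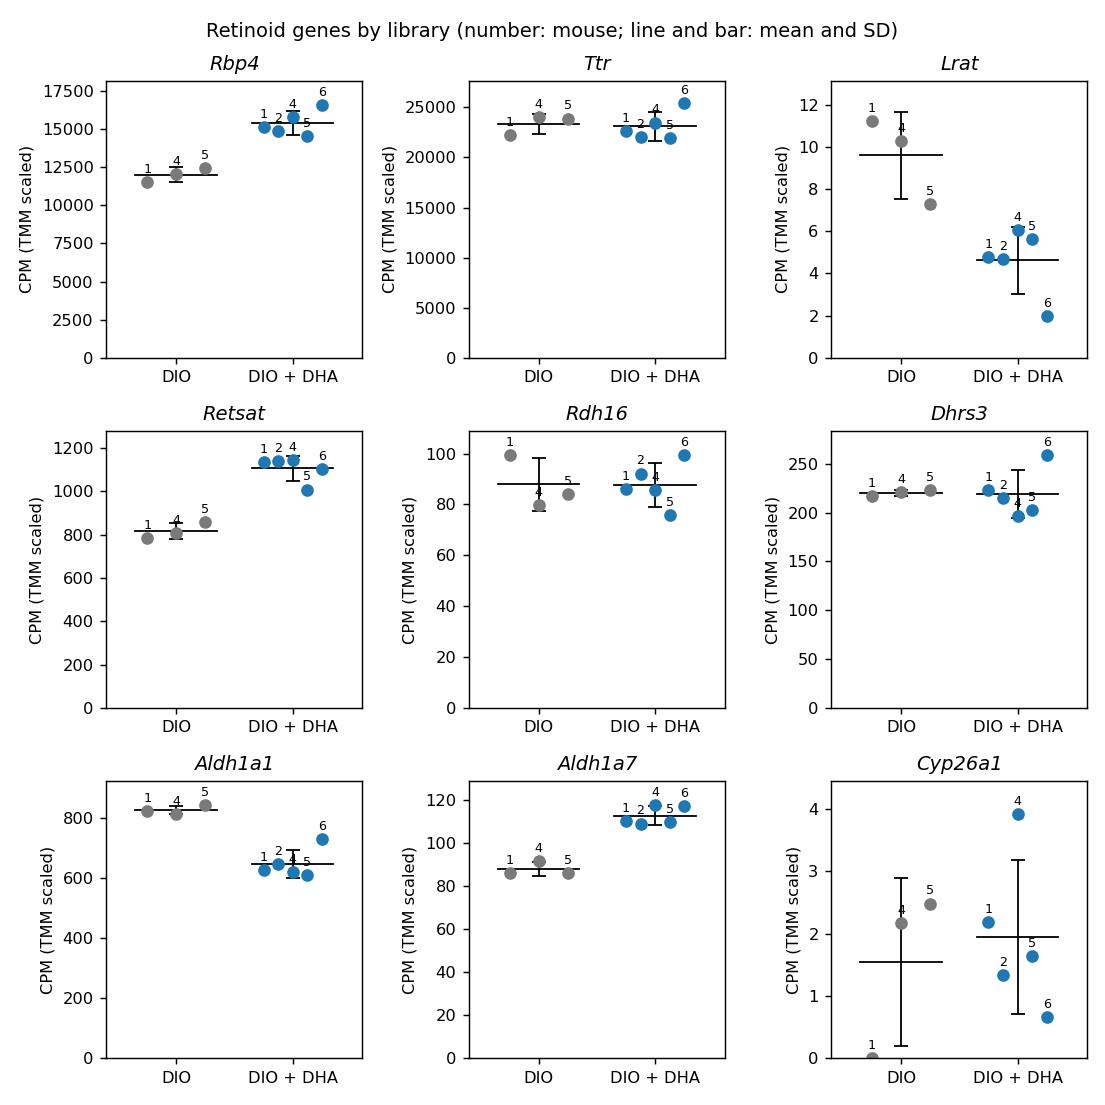
Each panel plots 1 gene, with the level in CPM on the vertical axis from 0 and the group on the horizontal axis. A point is the library of 1 mouse with its replicate number, the line is the group mean and the bar its SD (DIO, n = 3; DIO + DHA, n = 5). The points of the groups are apart for Rbp4, Retsat, Aldh1a7, Aldh1a1 and Lrat and overlap for Ttr, Rdh16, Dhrs3 and Cyp26a1.

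Rbp4 and Ttr encode the carrier complex of retinol in blood, and they came apart. Rbp4 (chr19:38105077-38113729, minus strand, GRCm39), the gene of the retinol carrier itself, was at 11516, 12065 and 12485 CPM in the DIO libraries (replicates 1, 4 and 5). The DIO + DHA libraries (replicates 1, 2, 4, 5 and 6) held 15148, 14875, 15776, 14579 and 16571 CPM. The lowest of these was above the highest DIO value. The means were 12022 ± 486 and 15390 ± 794 CPM, a log2 fold change of 0.36 with a standard error (SE) of 0.057 and an adjusted p of 2.31e-06. Of the counts in a library, 1.21% on average came from Rbp4 in the DIO group and 1.52% in the DIO + DHA group. Adipocytes also make Rbp4, and the adipocyte sums given above were higher in the same libraries, though their part in this result was not tested. In bulk RNA, a change in the number of cells of a type and a change in RNA per cell cannot be told apart.

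Ttr, which encodes transthyretin, the partner that keeps RBP4 from being filtered by the kidney, was at 22231, 23996 and 23891 CPM in the DIO libraries. It was at 22648, 22081, 23492, 21906 and 25403 CPM in the DIO + DHA libraries. The groups overlapped fully, with the lowest and the highest value both in the DIO + DHA group. The log2 fold change was −0.02, with a 95% interval from −0.13 to 0.10 and an adjusted p of 0.905. At this depth, with 39516 or more Ttr counts in every library, counting adds little to the interval. Its width rests on a spread between mice that the fit estimates in part from other genes.

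The count of Rbp4 divided by the count of Ttr in the same library needs no scaling between libraries. That ratio was 0.518, 0.503 and 0.523 in the DIO libraries and 0.669, 0.674, 0.672, 0.666 and 0.652 in the DIO + DHA libraries. The group means were 0.514 ± 0.0104 and 0.666 ± 0.00843, and relative to its mean the ratio varied less among mice than either gene alone did. The ratio was 1.30-fold higher in the DIO + DHA group, a difference of 0.37 on the log2 scale (exact two-sided permutation test over 56 splits, p = 0.0179, the smallest this design allows, and 0.0268 adjusted over 3 ratios). Rbp4 alone set the groups apart, and Ttr varied too little to close that gap. This ratio therefore had to separate the groups, and its p adds nothing to the call of Rbp4. DIO + DHA replicate 6, the library with the most Rbp4, also had the most Ttr and the lowest ratio of its group.

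**Figure D2:**
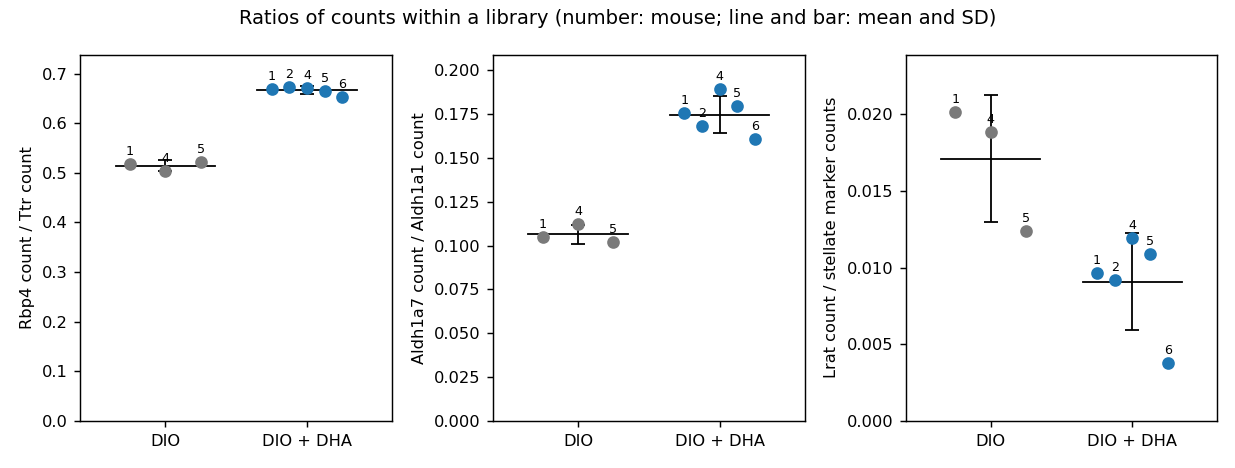
Each panel plots the ratio of the counts of a gene to those of another gene, or to the summed stellate cell markers, within 1 library. Points are mice with their replicate number, lines are group means and bars SD (DIO, n = 3; DIO + DHA, n = 5). The groups are apart in all 3 panels, narrowly for Lrat, where the lowest DIO ratio is 0.0124 and the highest DIO + DHA ratio 0.0119.

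Lrat (chr3:82799886-82811280, minus strand) encodes the enzyme that forms retinyl esters for storage, and its transcript is a mark of hepatic stellate cells. It was a low gene here, with 20, 57 and 41 counts in the DIO libraries and 24, 14, 17, 24 and 9 counts in the DIO + DHA libraries. These correspond to 11.3, 10.3 and 7.28 CPM and to 4.76, 4.69, 6.07, 5.62 and 1.97 CPM. All 5 DIO + DHA libraries lay below the 3 DIO libraries. The mean was 9.60 ± 2.07 in the DIO group and 4.62 ± 1.59 CPM in the DIO + DHA group. The log2 fold change was −1.03 (SE 0.25, 95% interval −1.53 to −0.53, adjusted p = 0.00183). A fall of at least 0.5 on the log2 scale was called for 4.47% of all tested genes. DIO + DHA replicate 6 was 57.5% below the mean of its group, and without it the log2 fold change was −0.82 (adjusted p = 0.0103). Leaving out another library instead brought the adjusted p of edgeR up to 0.0427 at most. Counting alone gives a coefficient of variation of 17.5% and 25.5% in the 2 groups, close to the 21.6% and 34.5% observed, so the size of the difference is known only roughly.

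Most of the other 16 markers of stellate cells had a negative log2 fold change. The exceptions were Des (3.53), Hhip (1.47) and Hand2 (0.10), of which only Des was called. The 16 markers summed to 546 to 587 CPM in the DIO group and 495 to 523 CPM in the DIO + DHA group, without an overlap. None was at 0 in all libraries. Of the 16, Colec11, Rgs5 and Cygb were lower, Des was higher and 12 were not called. The largest mean CPM was that of decorin (Dcn), at 203 ± 6.57 and 180 ± 7.93 CPM (log2 fold change −0.17, adjusted p = 0.125). Ecm1 was not called either (log2 fold change −0.09, adjusted p = 0.496), and Colec11 was lower (log2 fold change −0.28, adjusted p = 0.0339). The median log2 fold change of the 16 markers was −0.22, and their values ran from −0.99 for Angptl6, which was not called (adjusted p = 0.144), to 3.53 for Des. Des, which encodes desmin, is also a muscle gene, and it was at 0.887 to 1.98 CPM in the DIO group and 10.3 to 23.8 CPM in the DIO + DHA group, moving with the muscle markers. Divided by the summed counts of the 16 markers, Lrat was at 0.0171 ± 0.00414 in the DIO group and 0.00908 ± 0.00316 in the DIO + DHA group. The difference was −0.98 on the log2 scale (exact two-sided permutation test, p = 0.0357 before and after adjustment over 3 ratios), and −0.94 with Des left out of the sum, an alternative chosen after seeing the data (p = 0.0357). Leaving out any 1 library other than DIO + DHA replicate 6 brought this p to between 0.0571 and 0.190. With 1 library fewer there are fewer splits, so the smallest p possible is also larger. Genes of collagen-producing cells were low, the 6 of them summing to 19.5 to 28.7 and 22.1 to 30.5 CPM. Col1a1, Col1a2, Col3a1 and Lum were not called, with log2 fold changes from −0.34 to −0.03. Acta2, a smooth muscle actin gene, was higher, at 2.86 against 7.22 CPM (adjusted p = 0.000171), and Timp1, at 1.40 against 0.285 CPM, was lower (adjusted p = 0.0302).

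By its pattern over the 8 libraries, Lrat was most like Plk3 and Gas6 among 6224 tested genes that averaged 10 CPM or more. The root mean square difference of centred log2 CPM was 0.30 for Plk3 and 0.31 for Gas6. Plk3, a stress-responsive kinase gene, had means of 21.4 and 9.45 CPM in the DIO and DIO + DHA groups. Gas6, which encodes a ligand of the TAM receptors, had means of 68.3 and 30.5 CPM. This likeness is a description over the same libraries and largely repeats the difference between the groups.

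Retsat (chr6:72575458-72585408, plus strand) encodes retinol saturase, which reduces all-trans-retinol to dihydroretinol. It was at 785, 809 and 860 CPM in the DIO libraries. The DIO + DHA libraries held 1135, 1142, 1146, 1009 and 1105 CPM. Each DIO + DHA library was above each DIO library, and Retsat had the smallest p-value of the 9 genes. The mean rose from 818 ± 38.0 to 1107 ± 57.3 CPM (log2 fold change 0.44, SE 0.065, adjusted p = 3.93e-07). The antisense gene Gm45053 covers 18.4% of the exon bases of Retsat and none of its last 500, and counting was not stranded, so reads in that stretch cannot be assigned to either gene and were left out. Retsat is also active in adipocytes, whose marker sums, given above, were higher in the DIO + DHA group.

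Rdh16 (chr10:127637021-127682434, plus strand) encodes a retinol dehydrogenase of the endoplasmic reticulum that makes retinal. It was at 99.6, 79.9 and 84.3 CPM in the DIO libraries and at 85.9, 92.2, 85.6, 75.9 and 99.4 CPM in the DIO + DHA libraries. The values overlapped over nearly their whole range, and the log2 fold change was 0.02 (95% interval −0.16 to 0.21, adjusted p = 0.911). Rdh16 has close relatives next to it on chromosome 10, its coding sequence being 96.3% identical to that of Rdh9, and 8.60% of the 80-base stretches of its transcript also occur in relatives. Within its last 500 such stretches, where most reads fall, none is shared. The pseudogene Rdh18-ps overlaps 6.13% of its exon bases and none of the last 500.

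Dhrs3 (chr4:144619397-144654779, plus strand) encodes a reductase that turns retinal back into retinol and so limits retinoic acid. Its levels in the DIO libraries were close together, at 217, 221 and 223 CPM. They spread more in the DIO + DHA libraries, at 223, 215, 197, 203 and 259 CPM. The DIO values fell inside the range of the DIO + DHA group, which was wider: the coefficient of variation was 1.48% against 11.2%, where counting gives 3.75% and 3.54%. DIO + DHA replicate 6 alone was 18.2% above its group mean. The log2 fold change was −0.00 (95% interval −0.16 to 0.15, adjusted p = 0.980).

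Aldh1a1 and Aldh1a7 are paralogs that lie side by side on mouse chromosome 19, on opposite strands. Aldh1a1 encodes retinaldehyde dehydrogenase 1, which oxidises retinal to retinoic acid. Aldh1a7 encodes a closely related cytosolic aldehyde dehydrogenase. On GRCm39, as the count tables give it, Aldh1a1 spans chr19:20470079-20620829 on the plus strand and Aldh1a7 chr19:20670317-20704926 on the minus strand. Their coding sequences of 1506 bases are identical at 1380 positions, or 91.6%. The last 120 coding bases before the stop codon, from GENCODE transcripts of release 39, are shown with the bases that differ in capitals, since such differences let a read be assigned to 1 of the 2 genes:
Aldh1a1: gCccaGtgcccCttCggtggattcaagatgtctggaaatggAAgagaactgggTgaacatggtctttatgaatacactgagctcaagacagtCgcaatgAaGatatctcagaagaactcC
Aldh1a7: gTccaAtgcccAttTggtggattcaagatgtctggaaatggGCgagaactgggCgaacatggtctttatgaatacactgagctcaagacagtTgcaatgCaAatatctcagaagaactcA

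These differ at 11 of 120 bases. Of the stretches of 80 bases, 6123 in the release 39 transcript of Aldh1a1 and 5203 in that of Aldh1a7, 37 are shared by the 2 genes, all in the coding part. Only uniquely aligned reads were counted. The start of Aldh1a7 is also like the downstream RefSeq start of Aldh1a1, which lies 109253 bases inside the gene as counted. That start was taken as the closer match. The upstream RefSeq start of Aldh1a1, near the start of the gene as counted, was identical to Aldh1a7 at only 30 of 100 positions. The 100 bases before the RefSeq start of Aldh1a7 (chr19:20704921-20705020, minus strand) and those before the downstream RefSeq start of Aldh1a1 (chr19:20579232-20579331, plus strand) were compared. They are identical at 94 positions, and the 6 that differ are in capitals:
Aldh1a1: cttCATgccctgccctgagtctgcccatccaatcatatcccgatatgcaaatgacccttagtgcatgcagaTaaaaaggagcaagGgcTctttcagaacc
Aldh1a7: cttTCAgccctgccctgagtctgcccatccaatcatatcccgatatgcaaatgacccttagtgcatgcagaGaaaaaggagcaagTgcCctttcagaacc

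The paralogs moved in opposite directions. Aldh1a1 was at 822, 815 and 842 CPM in the DIO libraries. The DIO + DHA libraries held 626, 648, 621, 610 and 729 CPM. Every DIO + DHA library was below every DIO library, with replicate 6 nearest to them. The mean was 826 ± 14.1 against 647 ± 47.9 CPM, a log2 fold change of −0.35 (SE 0.065, adjusted p = 3.28e-05).

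Aldh1a7 was at 86.1, 91.6 and 85.9 CPM in the DIO libraries and at 110, 109, 117, 110 and 117 CPM in the DIO + DHA libraries. All of the latter were above all of the former, and the spread within each group was no larger than counting gives. The mean was 87.9 ± 3.25 against 113 ± 4.32 CPM, a log2 fold change of 0.35 (SE 0.083, adjusted p = 0.00118). By the log-odds threshold of limma-voom, B above 0, which 6.93% of all tested genes passed, Aldh1a7 was the 1 called gene of the 9 that was lost.

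The ratio of Aldh1a7 to Aldh1a1 counts was 0.105, 0.112 and 0.102 in the DIO libraries. The DIO + DHA libraries gave 0.175, 0.168, 0.189, 0.180 and 0.161. The groups were well apart, by 0.71 on the log2 scale or 1.64-fold (exact two-sided permutation test over 56 splits, p = 0.0179, the smallest this design allows, and 0.0268 adjusted over 3 ratios). Aldh1a7 was higher and Aldh1a1 lower in every DIO + DHA library than in any DIO library. The ratio therefore had to separate the groups, and its p adds nothing to the calls of the genes. The genes as counted end 3210 bases (Aldh1a7) and 1996 bases (Aldh1a1) short of their 3′ ends in GENCODE release 39, and the shortfall is 588 bases for Retsat and 0 to 89 bases for the other 6 genes. Reads from these stretches were not counted, so the ratio compares the groups but is no ratio of molecules.

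Cyp26a1 (chr19:37686246-37689984, plus strand) encodes the main enzyme that breaks down retinoic acid, and its transcript is a usual readout of retinoic acid in liver. Its promoter is shown because retinoic acid receptors are known to bind there. Promoter windows from RefSeq were at hand for 8 of the 9 genes, all but Ttr, as 12 windows of 250 bases before and 50 after a start, from a table on GRCm38.p6, each matched exactly to GRCm39. Both strands were searched for pairs of the hexamers AGTTCA or AGGTCA, in the same direction and spaced by 1, 2 or 5 bases. Only the window of Cyp26a1 held such a pair, with a spacing of 5, and none of the 5 called genes did. That spacing occurred in 13 of 32851 windows of the RefSeq table (0.0396%), and any of the 3 spacings in 0.161%. The 250 bases before the start of Cyp26a1 (chr19:37686006-37686255, plus strand, GRCm39) follow, with the pair in capitals. It lies on the minus strand and reads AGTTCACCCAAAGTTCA there:
Cyp26a1: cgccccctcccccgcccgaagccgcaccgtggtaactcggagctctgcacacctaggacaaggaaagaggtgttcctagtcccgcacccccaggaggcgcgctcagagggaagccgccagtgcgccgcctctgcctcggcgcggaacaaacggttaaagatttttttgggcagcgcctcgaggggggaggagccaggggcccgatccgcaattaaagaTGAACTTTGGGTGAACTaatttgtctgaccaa

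Cyp26a1 had 0, 12 and 14 counts in the DIO libraries and 11, 4, 11, 7 and 3 counts in the DIO + DHA libraries. The 0 was in DIO replicate 1, the shallowest library. The groups overlapped, and the log2 fold change was −0.08 with a 95% interval from −1.01 to 0.85 (adjusted p = 0.941). An interval this wide, from few counts, cannot tell sizeable changes in either direction from none. Of those among the 9 genes that retinoic acid is known to switch on, then, only Lrat was called. Dhrs3 was not called with a narrow interval, Cyp26a1 was not called with a wide one, and Lrat was lower. Tgm2 and Rarres1, listed below for a response to retinoic acid, moved in opposite directions. The part of retinoic acid in these values was not tested.

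**Figure D3:**
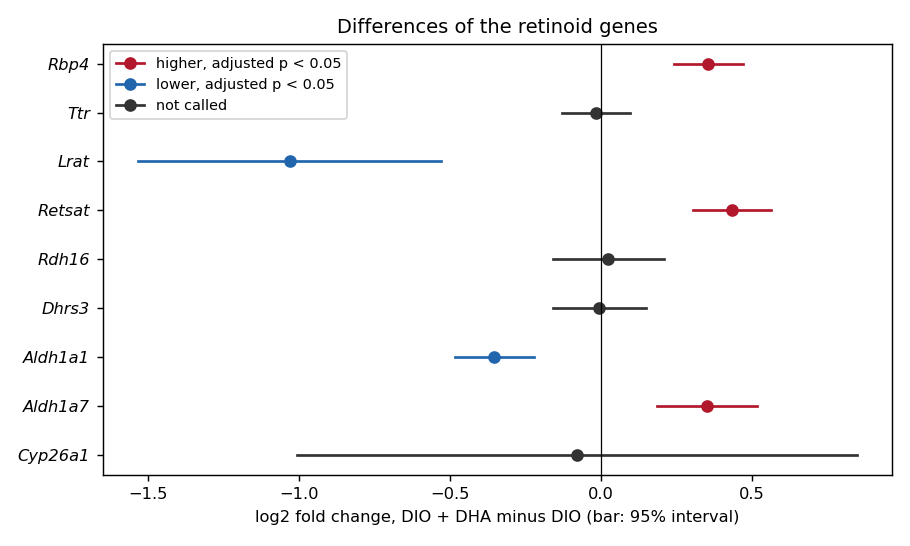
The log2 fold change of each gene (DIO + DHA minus DIO, horizontal axis) is plotted with its 95% interval from edgeR, red for genes called higher, blue for lower and grey for not called. The intervals of Ttr, Rdh16 and Dhrs3 are narrow and include 0, and that of Cyp26a1 runs from −1.01 to 0.85.

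Among the mice of a group, several of the genes were high or low in the same library. In the DIO + DHA group, replicate 6 had the highest value for 5 of the 9 genes (Rbp4, Ttr, Aldh1a1, Rdh16 and Dhrs3) and the lowest for Lrat and Cyp26a1. Replicate 5 had the lowest value for 5 genes (Rbp4, Ttr, Aldh1a1, Rdh16 and Retsat). In the DIO group, replicate 1 was lowest for 5 genes and replicate 5 highest for 5. These values share a library and its scaling, and no test was made of them. All 5 calls held when any 1 of the 8 libraries was left out.

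Beyond the 9 genes, 48 others of the pathway were listed by role. Of these, 34 were tested, 5 were higher, 2 were lower and 27 were not called, so that 7 of 34 were called against 15.2% of all tested genes. The median log2 fold change of the 34 was 0.09. Rbp2, Crabp1, Stra6 and Rdh19 were at 0 in all 8 libraries.

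Of the 9 genes of binding and uptake, 4 were tested. Fabp5, which carries fatty acids and can deliver retinoic acid, was higher, from 5.18 ± 1.89 to 8.99 ± 2.35 CPM. Its groups overlapped, its log2 fold change was 0.96 (SE 0.25, adjusted p = 0.00419), and it was not called without DIO replicate 5 (adjusted p = 0.0780) or by limma-voom B above 0. Fabp5 is strongly expressed in stratified epithelium and adipose tissue, and the marker sums of both, given above, were higher in the DIO + DHA group. The largest mean CPM of these genes was that of Stra6l, the liver receptor for RBP4, at 59.6 to 75.6 CPM in the DIO group and 65.1 to 81.1 CPM in the DIO + DHA group. It was not called, with a 95% interval of the log2 fold change from −0.23 to 0.15.

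Of the 4 genes of ester formation and hydrolysis, 3 were tested. Lipa, which encodes lysosomal acid lipase, had the largest mean CPM and rose from 80.6 ± 2.76 to 124 ± 3.91 CPM. Its log2 fold change of 0.63 (SE 0.083) had an adjusted p of 2.34e-08, and its groups did not overlap. Lipe, the gene of hormone-sensitive lipase, was not called (log2 fold change 0.45, adjusted p = 0.120), but was without DIO + DHA replicate 5 (adjusted p = 0.0395). This gene was named after its values were seen.

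Of 17 genes of retinol and retinal interconversion, 13 were tested, 1 was higher and 1 lower. Adh1, the class I alcohol dehydrogenase that also oxidises retinol, had the largest mean CPM and was lower: 2945 ± 193 against 2267 ± 112 CPM. Its log2 fold change was −0.38 (SE 0.061, adjusted p = 2.18e-06), and the groups did not overlap. Rdh11, a retinal reductase gene, was higher, at 8.19 ± 2.27 against 13.1 ± 1.54 CPM (log2 fold change 0.57, adjusted p = 0.0272). This call was lost under 8 of 19 alternatives. They were leaving out DIO replicate 1, DIO replicate 4, DIO + DHA replicate 2 or DIO + DHA replicate 6 (adjusted p of up to 0.103), the DESeq2 Wald test (adjusted p = 0.0899), limma-voom B above 0, and both fits of 6 libraries.

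None of the 3 tested genes of retinal oxidation on the wider list was called. The one with the largest mean CPM, Aldh8a1, whose enzyme prefers 9-cis-retinal, was at 441 ± 12.1 and 408 ± 30.2 CPM, with an adjusted p of 0.325. Cyp26b1, the other tested gene of retinoic acid breakdown, was at 5.42 ± 1.80 and 6.13 ± 1.31 CPM and was not called (adjusted p = 0.606). Neither carotene-cleaving enzyme gene was called, Bco1 being at 11.7 and 9.27 CPM (log2 fold change −0.23) and Bco2 at 11.1 and 12.8 CPM (log2 fold change 0.15).

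Of 6 receptor genes, 5 were tested. Rxra, the main RXR gene of liver, was at 224 ± 15.7 and 220 ± 13.2 CPM, with a 95% interval of the log2 fold change from −0.18 to 0.12. Rxrg was the only receptor gene called, at 7.68 ± 0.890 against 11.6 ± 1.75 CPM, a log2 fold change of 0.55 (adjusted p = 0.0474). It is best known from skeletal muscle, whose markers were far higher in the DIO + DHA group. The call was lost under 12 of 19 alternatives. It did not hold when any 1 of DIO replicates 1, 4 and 5 or DIO + DHA replicates 2, 4 and 5 was left out (adjusted p of up to 0.232), nor by the DESeq2 Wald test (adjusted p = 0.139), limma-voom by either threshold (adjusted p = 0.0624), the 6 libraries of shared numbers without a block (adjusted p = 0.0731), library size scaling (adjusted p = 0.0615) or the fit with no filter (adjusted p = 0.0826).

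Of the 3 genes named for a response to retinoic acid or known for one, Tgm2, the tissue transglutaminase gene, was lower and Rarres1 was higher. Tgm2 went from 119 ± 2.85 to 83.9 ± 5.16 CPM, a log2 fold change of −0.49 (SE 0.082, adjusted p = 5.04e-06). Rarres1 went from 20.2 ± 1.72 to 36.1 ± 3.83 CPM, a log2 fold change of 0.83 (SE 0.13, adjusted p = 1.11e-06). Neither had an overlap between its groups. Tgm2 is also strongly expressed by macrophages, whose summed markers were lower in the DIO + DHA group (11 of 13 lower, C1qb, Lyz2 and Cd5l among them, and Marco higher). Rarres2, the chemerin gene, was not called (log2 fold change 0.13, adjusted p = 0.335), and its last 500 exon bases all overlap Lrrc61 on the other strand, so its counts are uncertain.

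**Figure D4:**
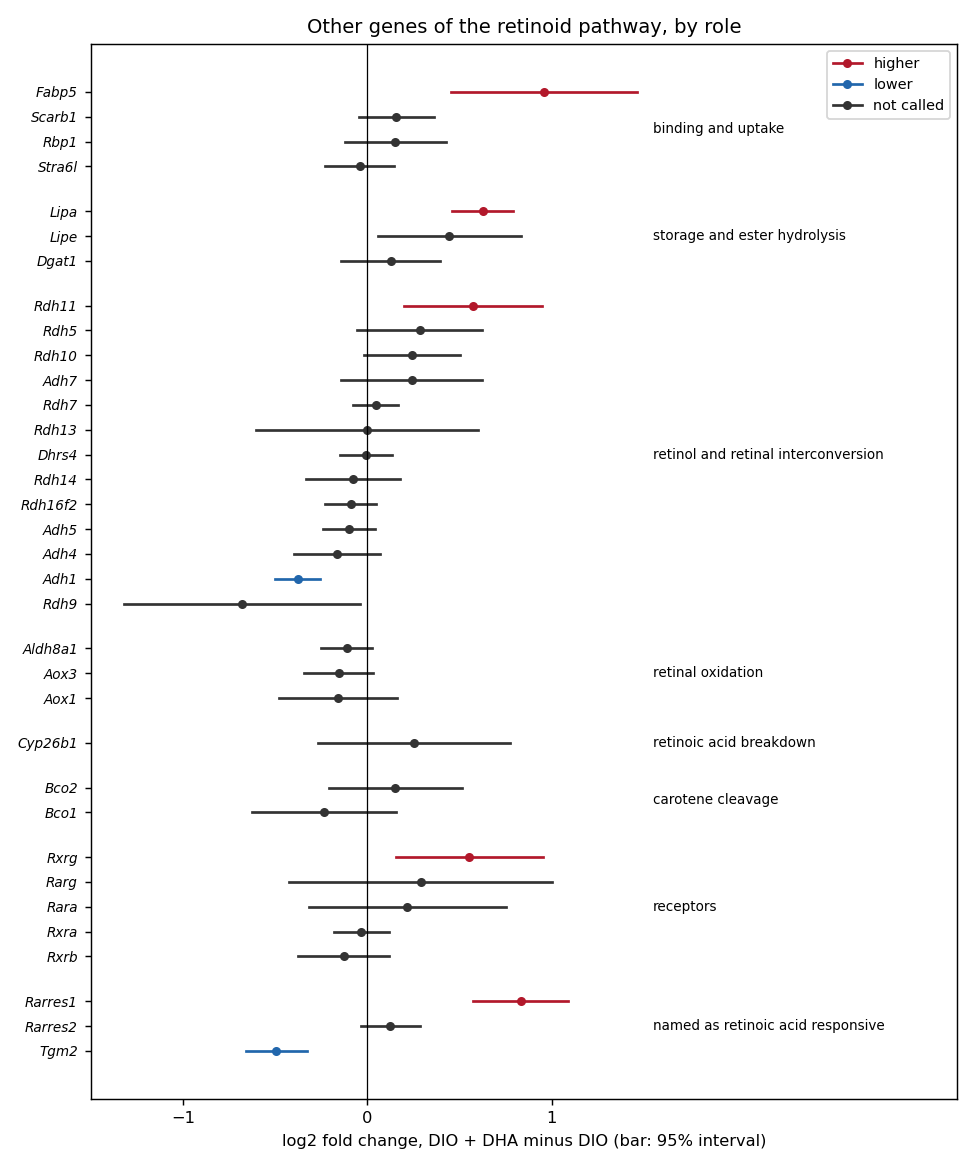
The log2 fold change (DIO + DHA minus DIO, horizontal axis) of 34 other genes of the retinoid pathway is plotted with its 95% interval from edgeR and grouped by role. Red marks the 5 genes called higher (Fabp5, Lipa, Rdh11, Rxrg and Rarres1), blue the 2 called lower (Adh1 and Tgm2) and grey the 27 not called.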

How the data were processed

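Poly(A) RNA of 8 livers was sequenced by an adapted SCRB-seq protocol, whose primer carries a barcode for the sample and an identifier for the molecule. Per the paper's methods and the submitters' processing notes, the authors checked reads with FastQC 0.11.8, aligned them to GRCm39 with STAR 2.7.9a and counted exonic reads of GENCODE vM33 genes with featureCounts 1.6.0, without a strand, multi-mapping or overlap option. The values deposited by the authors are raw counts per gene. The sources do not say whether molecular identifiers were collapsed, so counting errors may be understated.

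Groups came from the sample labels. Gene names came from GENCODE vM39, which held 56323 of 56884 identifiers. Genes with fewer than 5 counts in over 50% of DIO libraries and in over 50% of DIO + DHA libraries were not tested, which left 12412. TMM scaling and the robust quasi-likelihood test of edgeR 4.0.16 (R 4.3.3) were used, with Benjamini-Hochberg adjustment. Ratios of counts were compared by exact permutation (scipy 1.17.1). The scripts were tested on simulated data. No library was a duplicate, since within-group pairs had a chi-square per degree of freedom of 1.83 to 4.74.

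The genes and lists were chosen with earlier results of these data known. Named are the 9 genes, each called gene of the wider list, the gene of each role with the largest mean CPM, up to 3 such genes of a marker list, and the 2 genes most like each called gene with a change of at least 0.5 on the log2 scale. Other marker genes and Bco1 were named after their values were seen. The cell type markers were written from general knowledge. Alternatives were DESeq2 1.42.0, limma 3.58.1 (voom), other scaling and filters, the replicate number as a block, and leaving out each library in turn. Protein sequences and a promoter of Ttr were not analysed here.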

Additional observations from a re-analysis of the deposited data

How the results depend on the processing

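Of the 9 genes, 5 were called by edgeR under every scaling, by the DESeq2 Wald test and by limma-voom at an adjusted p under 0.05. Of the wider list, 5 genes were called by the Wald test and 6 by limma-voom, against 7. Requiring 10 counts in every library left 4 calls, since Lrat was then not tested. The limma-voom threshold of B above 0 gave 860 calls over all genes in place of 1883, 4 of the wider list in place of 7, and 4 of the 9 genes, the last with Aldh1a7 lost. No direction of a called gene turned. Scaling by library size alone gave 904 higher and 961 lower genes, against 979 and 904, and shifted the median log2 fold change to −0.02. Leaving out 1 library each gave 1432 to 1859 calls over all genes, 5 of the 9 genes each time and 5 to 8 of the wider list. The log2 difference of the ratio of Lrat to stellate markers then ran from −1.20 to −0.69, that of Rbp4 to Ttr from 0.36 to 0.38 and that of Aldh1a7 to Aldh1a1 from 0.69 to 0.76.

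The replicate numbers 1, 4 and 5 occur in both groups, but deviations of same-numbered libraries did not correlate (r from −0.0135 to −0.0111). The main fit had no replicate block. Whether same-numbered libraries shared a batch was not tested. A replicate block over these 6 libraries gave 1570 calls, against 1655 for the same libraries without it, with 5 of the 9 genes in each. Within numbers, Lrat had a log2 fold change of −0.76, and the log2 difference of its ratio to stellate markers was −0.64, with no test. The sign of Ttr, Rdh16, Dhrs3 and Cyp26a1 was not the same under all alternatives. Depth limits Lrat and Cyp26a1, whose largest counts were 57 and 14.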

Other observations

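Rbp7, a cellular retinol-binding protein gene known from adipose tissue and its capillaries, had 0 counts in each of the 3 DIO libraries. It had 23 counts over the 5 DIO + DHA libraries, at 0.397 to 2.14 CPM, and was too low to be tested. It was named after its values were seen. The adipocyte markers Fabp4 and Cfd rose from 17.2 ± 2.38 to 44.4 ± 5.75 CPM and from 1.39 ± 0.679 to 33.4 ± 5.29 CPM (SD, n = 3 and n = 5). What part adipose RNA has in the counts of Rbp7, Rbp4 and Retsat was not tested.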
